A study of Mus musculus with 30 samples.

Results

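The genes described here are 50 effector genes that cells switch on in response to type I interferon, followed in bone marrow (BM) and in adipose tissue macrophages (ATMs) of obese mice carrying Shp2-mutant hematopoietic cells and of WT mice. The members were given by symbol, as known interferon-stimulated genes, and were not selected by a threshold on these counts. All 50 symbols were present among the 13353 genes of the BM count table and among the 17059 genes of the ATM count table, and all 50 passed the low-count filter in both tissues. In every group, irradiated recipients (700 and then 400 cGy) received a 1:1 mixture of CD45.2 Shp2E76K/+;LysM-Cre+ and CD45.1 Boy/J bone marrow cells per the labels. Mice were of both sexes, on a C57BL/6 or C57BL/6J background, and their age was given as about 12 to 14 weeks. For mice on the treatment schedule below, this cannot be the age at sampling. Shp2E76K is a gain-of-function allele of the phosphatase Shp2, and LysM-Cre restricts its activation to myeloid cells. The WT group had WT recipients, and the 4 other groups had leptin-deficient, obese Ob/Ob recipients. From 8 weeks after transplantation, Ob/Ob recipients were given for 30 days vehicle (Vehicle), the GLP-1 receptor agonist beinaglutide at 3 mg/kg subcutaneously (GLP-1R agonist), an antibody against IL-17A at 200 µg per mouse intraperitoneally 3 times weekly (anti-IL-17A), or both agents (Combo). Each group had 3 libraries per tissue, labelled as separate mice, which gave 15 BM and 15 ATM libraries. The difference between Vehicle and WT holds the recipient genotype and the vehicle treatment together. For the ATM experiment a legend of the study names WT donor cells for the WT group. It can also be read as giving that group Ob/Ob recipients. The labels describe the same donor mixture for all groups and do not settle this for single samples. A difference of donor genotype therefore cannot be told apart from that of the recipient there. ATMs were sorted from visceral fat as F4/80+ cells and BM was whole marrow, so that fewer cells of a type and less RNA per cell cannot be told apart in either tissue.

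Type I interferons are secreted by cells that detect foreign or misplaced nucleic acid, bind the IFNAR1 and IFNAR2 receptor on the same and on neighbouring cells, and signal through JAK1 and TYK2 to transcription factors that include STAT2 and IRF9. These bind a short DNA element, the interferon-stimulated response element, in the promoters of a large set of genes whose products tag proteins with ISG15, block translation of foreign RNA, degrade RNA, trap virions or sense further nucleic acid. Macrophages and monocytes are among the cells in which this program is best known, and it can run at a low tonic level without infection.

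The response element is shown for 10 members, because it is the known control element of this class of genes, and these members are named again in the results. Its core was searched as GAAA, any 2 bases and GAAA on either strand, from 250 bases before to 50 bases after the RefSeq start site on GRCm38.p6. A promoter sequence was matched for 38 of the 50 members, and 18 of them (47.4%) held at least 1 core, against 3.49% of all 27025 promoters of that length. A second element, the gamma-activated sequence TTCNNNGAA, was in 7 of the 38 (18.4%) and in 8.47% of all promoters. In the lines that follow the capitals mark the core match, with overlapping matches joined, and each sequence is written 5′ to 3′ on the strand of its gene, so that a match on the opposite strand reads as TTTC, 2 bases and TTTC. A match describes these letters only and was not tested as a binding site.
Isg15 (chr4:156200863-156200896, minus strand, core 56 bases before the start): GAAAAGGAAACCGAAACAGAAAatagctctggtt
Ifit1 (chr19:34640792-34640825, plus strand, 75 bases before): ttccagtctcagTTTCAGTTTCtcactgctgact
Ifit3 (chr19:34583395-34583428, plus strand, 112 bases before): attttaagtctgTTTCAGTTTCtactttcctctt
Ifit3b (chr19:34607791-34607824, plus strand, 144 bases before): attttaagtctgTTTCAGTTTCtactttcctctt
Oas1a (chr5:120907526-120907551, minus strand, 4 bases before): tctcggGAAATGGAAACTGAAAatct
Oas1g (chr5:120887614-120887637, minus strand, 2 bases before): tctcggGAAATGGAAACTGAAAat
Oas3 (chr5:120777713-120777746, minus strand, 65 bases before): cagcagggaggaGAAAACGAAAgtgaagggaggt
Rsad2 (chr12:26456551-26456584, minus strand, 110 bases before): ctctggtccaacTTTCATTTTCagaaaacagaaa
Bst2 (chr8:71537575-71537608, minus strand, 114 bases before): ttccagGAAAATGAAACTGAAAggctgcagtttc
Phf11b (chr14:59341359-59341392, minus strand, 40 bases before): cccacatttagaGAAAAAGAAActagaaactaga
The windows of Ifit3 and Ifit3b were identical, and those of Oas1a and Oas1g were identical over the bases they share. Those pairs, and the pairs Trim30a with Trim30d and Phf11b with Phf11d, are close paralogs, and their separate values are uncertain. The authors counted uniquely mapped reads, so reads that fit both copies were lost, and others may be credited to the wrong copy. The members also sit together in the genome. On GRCm38, 21 of the 50 lie in 8 runs in which neighbours are at most 200 kb apart. Ifit2, Ifit3, Ifit3b and Ifit1 span chr19:34550694-34650009, Oas2, Oas3, Oas1g and Oas1a span chr5:120730333-120907521, and Rsad2 and Cmpk2 span chr12:26442746-26479837. Of the 50, 7 share more than 5% of their exon length with another gene, the highest being Adar and Ifi35 (16.8% each), and the counting did not use strand.

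Library totals ran from 31086184 to 39925495 counts in BM and from 24876074 to 45300263 in ATMs. The fitted biological coefficient of variation was 3.51% in BM and 32.5% in ATMs, and every pair of replicates differed by more than counting noise. Whether the small BM spread measures that between mice was not tested, and all BM tests below rest on it. Within groups, the median coefficient of variation of the members was 2.06% to 4.92% in BM and 4.75% to 12.6% in ATMs. In BM the WT library numbered 1 stood apart from the other WT libraries, and calls that it decides are given with and without it. The 3 ATM Vehicle libraries stood apart in their markers. The 6 neutrophil markers tested, all of which rose, summed to 232 to 251 counts per 1000000 (CPM, scaled by edgeR's TMM) in WT, 20787 to 22060 CPM in Vehicle, 167 to 174 CPM in GLP-1R agonist, 375 to 390 CPM in anti-IL-17A and 12140 to 12473 CPM in Combo. Of 8 macrophage markers, Adgre1 (which encodes F4/80), Csf1r, Mrc1 and C1qa fell and Cd68 and Fcgr1 rose in ATM Vehicle against WT, and the 8 summed to 2013 to 2131 CPM in WT, 1414 to 1525 CPM in Vehicle, 4028 to 4131 CPM in GLP-1R agonist, 5979 to 6125 CPM in anti-IL-17A and 3296 to 3355 CPM in Combo. No macrophage marker was at 0, although Adgre1, the gene of the sort marker, had only 30.2, 52.4 and 44.3 CPM in the ATM Vehicle libraries against 192, 203 and 230 CPM in WT. In BM, 5 B cell markers summed to 1078 to 1096 CPM in WT and 313 to 330 CPM in Vehicle, and the 6 neutrophil markers tested had 1 call, a lower Retnlg. Monocyte markers summed to 1676 to 1697 CPM in BM WT and 3510 to 3666 CPM in BM Vehicle, and macrophage markers to 440 to 464 CPM and 656 to 669 CPM. These higher sums were not shared by all markers. Ly6c2 (640 to 701 CPM in BM WT, 2592 to 2768 CPM in BM Vehicle) and Cd14 were higher. Ccr2 and F13a1 were lower, and Fn1 overlapped WT. Fcgr1 (at most 21.2 CPM in BM WT, 217 to 220 CPM in BM Vehicle), Cd68, Mertk and C1qb were higher. Mrc1 (47.2 to 54.6 CPM in BM WT, 6.07 to 7.20 CPM in BM Vehicle), Adgre1 and C1qa were lower, and Csf1r overlapped WT. In ATMs, adipocyte markers summed to 1436 to 1447 CPM in WT, 4063 to 4313 CPM in Vehicle and 1170 to 1342 CPM in the treated libraries. Of these only Fabp4 rose in Vehicle, from 989 to 1001 CPM to 3921 to 4172 CPM. Adipoq, Cidec and Car3 were lower than in WT, and Plin1 overlapped WT. Monocyte markers in ATMs went from 3035 to 3171 CPM in WT to 1455 to 1587 CPM in Vehicle, and epididymal markers from 2973 to 3125 CPM to 0 to 2.12 CPM. Of the monocyte markers, Ly6c2 (31.5 to 34.7 CPM in WT, 533 to 573 CPM in Vehicle) and Cd14 rose. Fn1 (2032 to 2075 CPM in WT, 129 to 147 CPM in Vehicle), F13a1 and Ccr2 fell. The labels describe groups matched for sex, yet Xist, transcribed from the inactive X chromosome, was at 182 to 193 CPM in BM Vehicle and 101 to 105 CPM in BM Combo and at no more than 3.26 CPM in the BM libraries of the other groups. In ATMs Xist was at 30.1 to 46.2 CPM in Vehicle, 31.4 to 38.1 CPM in Combo and no more than 1.22 CPM elsewhere. The Y-linked gene Ddx3y was at 42.8 to 48.3 CPM in BM WT, 19.9 to 21.3 CPM in BM Vehicle and 4.22 to 5.09 CPM in BM Combo. Eif2s3y, also Y-linked, was at 68.9 to 79.7, 30.4 to 33.6 and 4.20 to 5.39 CPM in the same order. Every BM Vehicle library thus held both Xist and Y-linked transcripts, at similar levels in all 3 libraries. Whether each library came from a single mouse was not tested. Vehicle thus differed from WT, and from the single-agent groups, in many of these markers as well as in the members. Against Combo some markers changed little in ATMs, where Xist and the epididymal markers (0 to 1.07 CPM in Combo) were near their Vehicle levels. The part of the markers was not tested in any result below, whether Vehicle was compared or not.

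Averaged over the 50 members, expression was highest in Vehicle in both tissues. In BM the mean log2 CPM over the members was 5.05 ± 0.0202 in WT, 7.96 ± 0.00467 in Vehicle, 3.60 ± 0.0619 in GLP-1R agonist, 4.25 ± 0.0183 in anti-IL-17A and 3.87 ± 0.0225 in Combo (SD, n = 3 libraries each). In ATMs it was 5.33 ± 0.00495 in WT, 8.68 ± 0.00757 in Vehicle, 4.68 ± 0.0204 in GLP-1R agonist, 4.70 ± 0.0228 in anti-IL-17A and 5.07 ± 0.0676 in Combo. In both tissues all 3 Vehicle libraries lay above, and all 9 treated libraries lay below, the 3 WT libraries. The members took 0.278% to 0.281% of all BM counts in WT and 1.55% in Vehicle, and 0.388% to 0.394% of ATM counts in WT and 3.70% to 3.74% in Vehicle. In the treated groups that share was 0.154% to 0.210% in BM and 0.247% to 0.353% in ATMs. The level per member is drawn by library below.

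**Figure D1:**
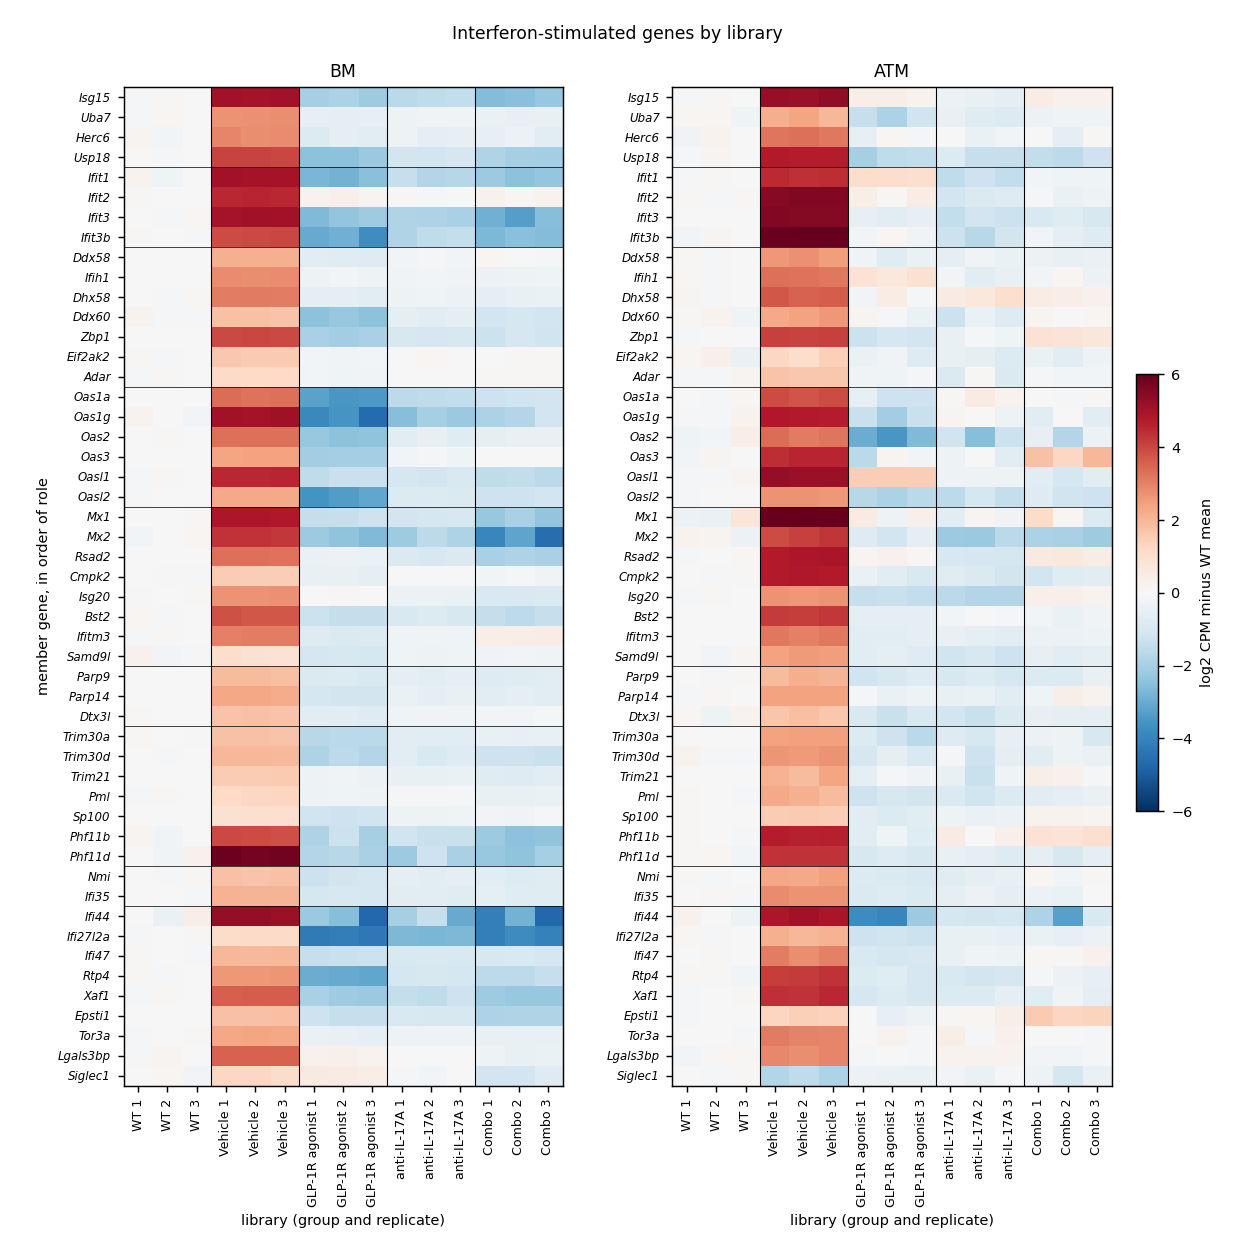
Each row is 1 of the 50 members, in order of role, and each column is 1 library, for BM on the left and ATM on the right; colour gives log2 CPM minus the mean of the 3 WT libraries of that tissue (red higher, blue lower). The Vehicle columns are red for every member except Siglec1 in ATMs, and the blue cells of the treated groups are deeper in BM than in ATMs.

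The comparison of Vehicle with WT asks how the interferon program stood in obese, untreated recipients of mutant cells. Against WT, 48 of the 50 members rose in BM and none fell, with a median log2 fold change of 2.73, where 9.44% of all BM genes tested were called higher. Calls throughout are from edgeR's quasi-likelihood test over all genes of a tissue, with a Benjamini-Hochberg adjusted p (FDR) below 0.05 and a log2 fold change beyond 1 in either direction. In ATMs 49 rose and Siglec1 fell, with a median of 3.16, where 12.5% of genes were called higher and 22.9% lower. The median over all ATM genes tested was itself shifted, by -0.21 in Vehicle against WT, by 0.19 in GLP-1R agonist and 0.17 in anti-IL-17A against Vehicle, and by -0.12 in Combo against WT, and the ATM values are read relative to these shifts. The Vehicle libraries lay all above the WT libraries for 50 members in BM and 49 in ATMs, as they did for 37.5% of all BM genes and 26.7% of all ATM genes. Called higher in both tissues were 47 members, against 4.24% of the 13076 genes tested in both, and 1, Siglec1, was called in opposite directions, against 1.59%.

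Isg15, the ubiquitin-like protein that is conjugated to target proteins in this response, is shown first because its conjugation pathway opens the list of roles. In BM it was at 27.5, 29.9 and 29.1 CPM in the WT libraries and at 948, 917 and 958 CPM in Vehicle. In ATMs it was at 49.8, 56.5 and 55 CPM in WT and at 2011, 1964 and 2127 CPM in Vehicle. The groups were far apart and the 3 libraries of each lay close together. The log2 fold change was 5.03 ± 0.0383 in BM (SE; 32.7-fold, FDR 8.68e-47, edgeR) and 5.24 ± 0.0765 in ATMs (37.8-fold, FDR 4.07e-17, edgeR). The activating enzyme Uba7, the ligase Herc6 and Usp18, the protease that removes ISG15, rose as well, so that this role had 4 of 4 members higher in both tissues, with a range of log2 fold changes of 2.75 to 5.03 in BM and 2.17 to 5.24 in ATMs.

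The IFIT proteins bind foreign RNA ends and block translation, and all 4 genes rose in both tissues, with median log2 fold changes of 4.77 in BM and 5.53 in ATMs. Ifit2 was at 27.5, 25.9 and 26.2 CPM in BM WT and 614, 624 and 608 CPM in BM Vehicle. Ifit3 was at 14.7, 14.3 and 16.3 CPM in BM WT and 485, 495 and 491 CPM in BM Vehicle. Neither gene had a Vehicle library near a WT library, and the rises were 23.2-fold (log2 4.53 ± 0.0399, FDR 9.62e-46, edgeR) and 32.6-fold (log2 5.03 ± 0.0522, FDR 1.26e-34, edgeR). The same genes rose in ATMs, where the rise of Ifit3b was called larger than in BM. Ifit2 went from 77.3, 67.8 and 76.3 CPM to 3268, 3470 and 3471 CPM, a 46.1-fold rise (log2 5.53 ± 0.117, FDR 2.51e-15, edgeR). Ifit3 went from 55.2, 54 and 52.9 CPM to 2564, 2501 and 2453 CPM, a 46.4-fold rise (log2 5.54 ± 0.0880, FDR 8.6e-17, edgeR). Their close neighbour followed the same course. Ifit3b went from 11.8, 14.7 and 12.8 CPM to 789, 826 and 814 CPM, a 61.7-fold rise (log2 5.95 ± 0.164, FDR 5.88e-14, edgeR). As a close paralog of Ifit3, Ifit3b may lack reads that fit both genes, or hold reads of its neighbour. Ifit1 in ATMs was at 139, 152 and 147 CPM in WT and at 3262, 3072 and 3177 CPM in Vehicle, a 21.7-fold difference (log2 4.44 ± 0.0688, FDR 6.79e-17, edgeR), against a log2 fold change of 5.01 in BM.

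The sensors and kinases rose less. The RNA helicases Ddx58 (RIG-I), Ifih1 (MDA5), Dhx58 (LGP2) and Ddx60, the nucleic acid sensor Zbp1, the RNA-activated kinase Eif2ak2 (PKR) and the RNA editing enzyme Adar were all called higher, 7 of 7 in both tissues, with medians of 2.13 in BM and 2.62 in ATMs. Adar in BM was at 95.9, 106 and 101 CPM in WT and 225, 235 and 232 CPM in Vehicle. Its groups were well separated, yet the rise of 2.28-fold (log2 1.19 ± 0.0330, FDR 7.69e-30, edgeR) was the lowest of the role in BM, and 16.8% of its exon length is shared with another gene. The highest level per exon length of the role in ATM Vehicle was that of Zbp1, with a mean of 129 CPM per kb, and it went from 25.7, 27.6 and 27.8 CPM in WT to 466, 447 and 458 CPM (log2 4.08). Ifih1 in ATMs was at 45.2, 38.6 and 40.7 CPM in WT and 410, 402 and 372 CPM in Vehicle, a 9.5-fold rise (log2 3.25 ± 0.143, FDR 1.83e-11, edgeR).

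The oligoadenylate synthetases make the messenger that activates RNase L, and the OAS-like proteins lack or have altered that activity. All 6 rose in both tissues, with medians of 3.31 in BM and 4.19 in ATMs. Oas3 was at 95.2, 93.8 and 90.8 CPM in BM WT and 482, 497 and 491 CPM in BM Vehicle, a 5.25-fold rise (log2 2.39 ± 0.0307, FDR 9.77e-42, edgeR). Oas1g was at 4.0, 3.39 and 3.15 CPM in BM WT and 117, 115 and 120 CPM in BM Vehicle, a 33.0-fold rise (log2 5.05 ± 0.0806, FDR 2.85e-38, edgeR). Both were raised in every Vehicle library, and the rise of Oas1g, a close paralog of Oas1a, was the largest of the family in BM. Oasl1 in ATMs was at 67.9, 64.7 and 80.5 CPM in WT and at 2768, 2594 and 2602 CPM in Vehicle, a 37.4-fold rise (log2 5.22 ± 0.0991, FDR 6.33e-16, edgeR).

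Among the direct antiviral effectors, Ifitm3, which restricts the entry of enveloped viruses at endosomal membranes, stood at the highest level per exon length of all members, at a mean of 3097 CPM per kb in BM Vehicle and 9154 CPM per kb in ATM Vehicle. It was at 244, 263 and 257 CPM in BM WT and 2051, 2112 and 2136 CPM in BM Vehicle, an 8.24-fold rise (log2 3.04 ± 0.0270, FDR 3.77e-47, edgeR). In ATMs it was at 725, 702 and 718 CPM in WT and 6413, 5875 and 6331 CPM in Vehicle, an 8.68-fold rise (log2 3.12 ± 0.0460, FDR 4.32e-17, edgeR). Both tissues thus had a similar rise from different starting levels. Mx1, a gene of the dynamin-like GTPase family, had the highest ATM fold of the members, from 2.73, 2.63 and 5.78 CPM in WT to 289, 319 and 288 CPM in Vehicle (80.3-fold, log2 6.33 ± 0.416, FDR 2.84e-09, edgeR). Its counts do not tell whether a working protein is made in these mice, and Mx2 is annotated as a polymorphic pseudogene. Rsad2, which encodes viperin, and its neighbour Cmpk2, a nucleotide kinase, were chosen after their values were seen. In ATMs Rsad2 was at 202, 208 and 227 CPM in WT and 5816, 6220 and 6338 CPM in Vehicle. The role had 7 of 8 members higher in BM and 8 of 8 in ATMs. Bst2 (tetherin), which holds budding virions at the cell surface, rose 13.5-fold in BM (log2 3.76) and 18.1-fold in ATMs (log2 4.18). The BM exception was Samd9l, a growth-restraining gene, with 214, 163 and 169 CPM in WT and 373, 337 and 326 CPM in Vehicle (log2 0.92 ± 0.0892, FDR 2.15e-06, edgeR), which missed the fold limit and passed it without the first WT library (1.06).

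Most genes of the next roles rose by less. The ADP-ribosylating proteins Parp9 and Parp14 and the ligase Dtx3l were 3 of 3 higher in both tissues, with medians of 1.86 in BM and 2.04 in ATMs. Parp14 was at 60.0, 59.1 and 59.1 CPM in BM WT and 297, 293 and 282 CPM in BM Vehicle (4.89-fold, log2 2.29 ± 0.0367, FDR 2.57e-38, edgeR). Dtx3l, which shares 8% of its exon length with Parp9, was at 71.5, 53.3 and 77.6 CPM in ATM WT and 211, 231 and 202 CPM in ATM Vehicle (3.18-fold, log2 1.67 ± 0.148, FDR 1.05e-07, edgeR). The TRIM and nuclear body genes were 6 of 7 higher in BM and 7 of 7 in ATMs, with medians of 1.76 and 2.46. Sp100, a nuclear body protein, was the BM exception, with 293, 304 and 306 CPM in WT and 570, 588 and 597 CPM in Vehicle. Its groups did not overlap, but its log2 fold change of 0.96 ± 0.0267 (FDR 8.34e-30, edgeR) missed the limit of 1. Phf11d was at the other end, with 2.78, 2.42 and 3.37 CPM in BM WT and 169, 157 and 158 CPM in BM Vehicle, the highest BM fold of all members (56.5-fold, log2 5.82 ± 0.0779, FDR 2.11e-40, edgeR). In ATMs it started from a higher level of 42.5, 43.6 and 36.1 CPM and reached 831, 821 and 809 CPM (20.1-fold, log2 4.33 ± 0.119, FDR 5.6e-14, edgeR). Nmi and Ifi35, which form a complex with each other, rose in both tissues. Ifi35 was at 38.5, 38.4 and 36.4 CPM in BM WT against 159, 158 and 158 CPM in Vehicle (4.18-fold, log2 2.06 ± 0.0412, FDR 6.15e-35, edgeR), and at 47.5, 48.5 and 44.7 against 338, 299 and 307 CPM in ATMs (6.71-fold, log2 2.75 ± 0.0999, FDR 1.76e-12, edgeR).

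Of the 9 other interferon-induced genes, 9 rose in BM, while in ATMs 8 rose and 1 fell. Lgals3bp, a secreted galectin-binding glycoprotein, was at 66.6, 80.4 and 71.4 CPM in BM WT and 832, 854 and 851 CPM in BM Vehicle (11.6-fold, log2 3.54 ± 0.0471, FDR 1.54e-21, edgeR). Its ATM libraries were at 290, 339 and 349 CPM in WT and 2385, 2264 and 2466 CPM in Vehicle (7.27-fold, log2 2.86 ± 0.0641, FDR 4.48e-15, edgeR). Ifi44 was barely counted in BM WT, at 1.47, 1.08 and 1.92 CPM, and was at 58.1, 57.9 and 55.1 CPM in BM Vehicle (38.5-fold, log2 5.27 ± 0.180, FDR 5.78e-14, edgeR). Siglec1 (CD169), a sialic acid receptor of macrophages that interferon induces, was the member that moved apart. In BM it was at 17.1, 18.4 and 15 CPM in WT and 39.5, 40.3 and 36.1 CPM in Vehicle (2.29-fold, log2 1.20 ± 0.0724, FDR 1.39e-17, edgeR). In ATMs it was at 37.0, 35.8 and 39.7 CPM in WT and 11.1, 12.9 and 10.2 CPM in Vehicle, so it fell by 1.72 on the log2 scale (SE 0.176, FDR 6.04e-07, edgeR) in the libraries in which the 49 other members rose. Csf1r, the macrophage growth factor receptor, fell as well in ATMs, from 531 to 556 CPM in WT to 38.4 to 54.4 CPM in Vehicle. Adgre1, Mrc1 and C1qa also fell. Cd68 (261 to 263 CPM in WT, 505 to 552 CPM in Vehicle) and Fcgr1 rose, so the macrophage markers did not move together. Their part in the Siglec1 value was not tested.

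**Figure D2:**
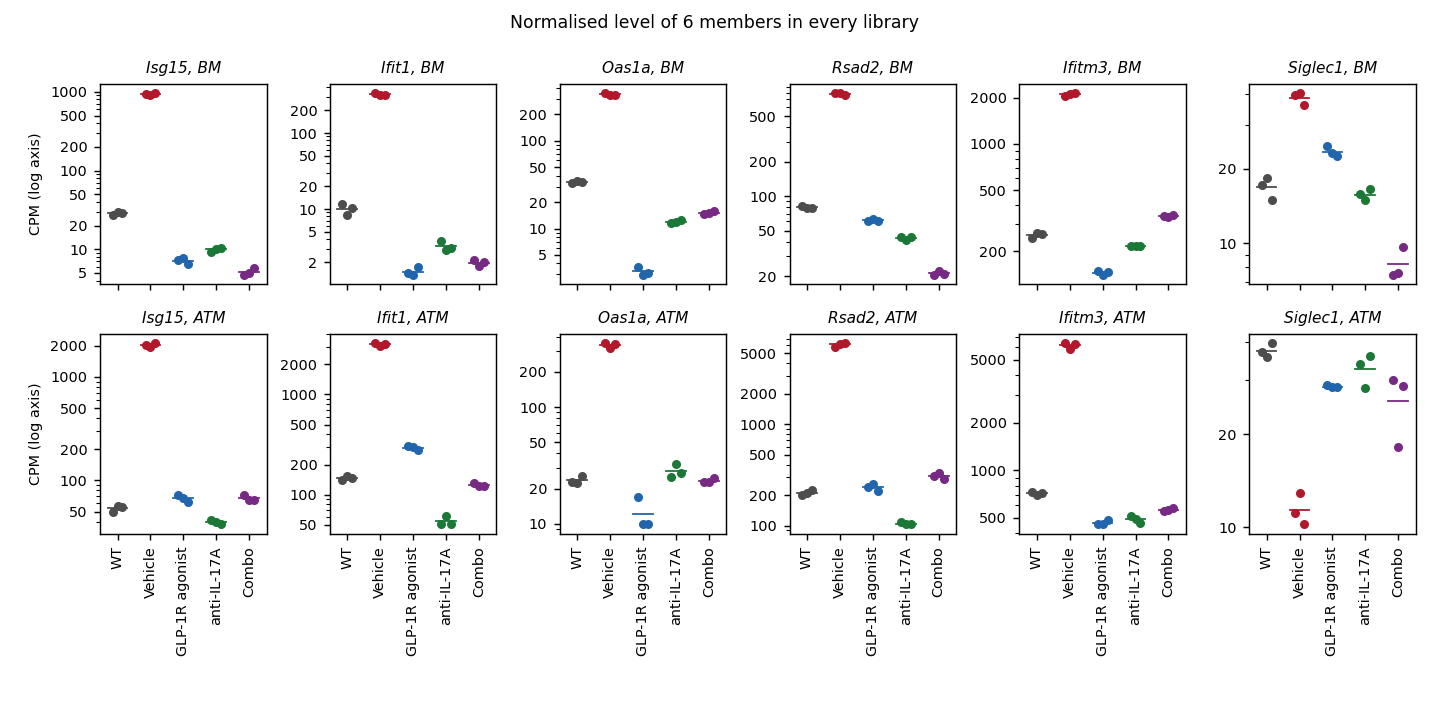
CPM on a log axis for 6 members in every library (points, 3 per group) with the group mean (line), BM above and ATM below. Vehicle is the highest group in all panels except Siglec1 in ATMs, where its libraries, at 10.2 to 12.9 CPM, are the lowest, and Ifit1 in ATMs stays higher in GLP-1R agonist (282 to 305 CPM) than in WT (139 to 152 CPM).

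The comparisons of treated groups with Vehicle ask how far each agent, alone or together, moved the program in obese recipients. They share the 3 Vehicle libraries of a tissue, so their values stand side by side without a measure of likeness. In BM, 49 of 50 members fell with the GLP-1R agonist (median log2 fold change -3.69, where 9.08% of genes were called lower), 50 of 50 with anti-IL-17A (median -3.20, 8.46%) and 50 of 50 with Combo (median -3.52, 11.1%). In ATMs 49 fell and 1 rose with the GLP-1R agonist (median -3.69, with 20.8% of genes called higher and 10.9% lower), 49 fell and 1 rose with anti-IL-17A (median -3.64, 22.4% and 13.1%), and 48 fell and 1 rose with Combo (median -3.28, 14.1% and 12.2%). Called lower in both tissues were 49 members with the GLP-1R agonist, 49 with anti-IL-17A and 48 with Combo, against 3.85%, 4.01% and 3.98% of the 13076 genes.

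Isg15 fell to 7.21, 7.70 and 6.57 CPM with the GLP-1R agonist in BM, to 9.27, 10.1 and 10.5 CPM with anti-IL-17A and to 4.73, 5.02 and 5.84 CPM with Combo. All 9 of these libraries were below the lowest WT library as well as far below Vehicle, at 131-fold, 94.4-fold and 181-fold lower than Vehicle in that order (FDR 4.24e-49, 8.62e-49 and 4.18e-49, edgeR). In ATMs Isg15 was at 71.9, 67.8 and 62.3 CPM, at 41.6, 39.2 and 37.5 CPM and at 72.7, 65.1 and 64.3 CPM in the same order, which is 30.2-fold, 51.6-fold and 30.2-fold lower than Vehicle (FDR 5.83e-17, 1.43e-17 and 1.31e-16, edgeR). These ATM libraries lay around the WT level of 49.8 to 56.5 CPM, above it in GLP-1R agonist and Combo and below it in anti-IL-17A.

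The IFIT genes had the lowest medians of the roles under Combo, at -6.99 in BM and -6.09 in ATMs, and the TRIM and nuclear body genes in BM and the PARP and DTX3L genes in ATMs had the smallest, at -2.27 and -2.29. Within the IFIT family the members differed. BM Ifit2 was at 30.6, 32.9 and 30.2 CPM with the GLP-1R agonist, 28.3, 24.7 and 27.2 CPM with anti-IL-17A and 32.1, 28.9 and 31.2 CPM with Combo, close to its WT level of 25.9 to 27.5 CPM. BM Ifit3, its neighbour on chromosome 19, was at 2.37, 2.84 and 3.40 CPM, at 4.28, 4.16 and 3.93 CPM and at 2.01, 1.49 and 2.52 CPM in the same order, all below its WT level of 14.3 to 16.3 CPM. The log2 fold changes against Vehicle were -4.30, -4.53 and -4.32 for Ifit2 and -7.42, -6.89 and -7.93 for Ifit3. In ATMs Ifit1 kept 305, 298 and 282 CPM with the GLP-1R agonist, against 50.5, 60.9 and 51.6 CPM with anti-IL-17A and 131, 123 and 122 CPM with Combo, and its log2 fold changes were -3.43, -5.87 and -4.66.

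Ifitm3, the member with the highest level per length, was at 149, 140 and 146 CPM with the GLP-1R agonist in BM, at 216, 215 and 216 CPM with anti-IL-17A and at 339, 335 and 343 CPM with Combo. Its falls against Vehicle were thus 14.5-fold, 9.74-fold and 6.19-fold, and Combo was the treated group in which it stayed above WT. In ATMs it was at 455, 455 and 486 CPM, at 518, 493 and 463 CPM and at 557, 558 and 578 CPM, all under the WT level of 702 to 725 CPM, with falls of 13.3-fold, 12.6-fold and 11-fold. Mx1 in ATMs was at 4.95, 2.82 and 4.26 CPM, at 2.24, 3.87 and 2.98 CPM and at 7.47, 3.73 and 1.94 CPM, a range that overlapped that of WT in all 3 treated groups.

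Members with few counts reached the largest folds. BM Oas1g fell to 0.188, 0.252 and 0.0880 CPM with the GLP-1R agonist (637-fold), to 0.554, 0.826 and 0.703 CPM with anti-IL-17A (167-fold) and to 0.886, 1.00 and 1.56 CPM with Combo (102-fold). BM Phf11d was at 0.487 to 1.16 CPM in the 9 treated libraries, with log2 fold changes of -7.66, -7.60 and -8.16. BM Ifi44 was at 0.0295, 0.152 and 0 CPM with Combo, which is 1, 5 and 0 counts, so that its log2 fold change of -9.81 rests on 6 counts.

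Siglec1 moved apart here too. BM Siglec1 was at 24.6, 23.2 and 22.4 CPM with the GLP-1R agonist, at 15.8, 15 and 16.5 CPM with anti-IL-17A and at 7.45, 7.57 and 9.65 CPM with Combo. The GLP-1R agonist value, -0.72 (FDR 9.74e-12, edgeR), missed the fold limit and was the 1 BM member not called, while anti-IL-17A (-1.30) and Combo (-2.23) passed it. In ATMs Siglec1 rose with every treatment, to 28.9, 28.5 and 28.5 CPM, to 33.8, 28.3 and 36.1 CPM and to 30.0, 18.2 and 28.8 CPM (log2 1.33, 1.52 and 1.17, FDR 1.03e-05, 2.16e-06 and 4.23e-05, edgeR). Adgre1 was higher in the same libraries, at 375 to 403 CPM, 864 to 894 CPM and 395 to 405 CPM. Fcgr1, another macrophage marker, went the other way, from 147 to 176 CPM in ATM Vehicle to 18.3 to 50.9 CPM in the treated libraries. The part of these markers in the Siglec1 value was not tested. The member not called in ATM Combo was Epsti1, an epithelial-stromal interaction gene, chosen for its exception after its values were seen. It was at 67.1, 73.4 and 71.4 CPM in ATM Vehicle and 80.0, 66.4 and 67.5 CPM in ATM Combo, ranges that overlapped (log2 0.01 ± 0.123, FDR 0.979, edgeR), although it fell to 26.7, 19.1 and 22.2 CPM with the GLP-1R agonist and 28.8, 29.2 and 34.6 CPM with anti-IL-17A.

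The comparisons of treated groups with WT, which share the WT libraries and do not use the Vehicle libraries in their contrasts, ask whether the program came back to the level of the WT group or passed it. In BM no member was called higher than WT, and 31 were lower with the GLP-1R agonist (median log2 fold change -1.34, where 8.62% of genes were called lower), 16 with anti-IL-17A (median -0.63, 4.02%) and 24 with Combo (median -0.93, 9.93%). In ATMs, 2 members were higher and 12 lower with the GLP-1R agonist (median -0.64, with 7.70% of genes called higher and 7.42% lower), none higher and 13 lower with anti-IL-17A (median -0.57, 9.04% lower), and 2 higher and 4 lower with Combo (median -0.27, with 7.08% higher and 14.5% lower). The ATM Combo counts, and the count higher with the GLP-1R agonist, are near the shares of all genes and say nothing particular of the members. These counts rest on the fold limit, and without it 32 to 49 of the 50 differed from WT in either direction, depending on the group and tissue. Without the limit 66.3% to 74.7% of all BM genes and 35.5% to 41.1% of all ATM genes differed from WT as well. Without the BM WT library numbered 1, the BM calls of Ifi35 (-0.99) and Samd9l (-0.89) with the GLP-1R agonist and of Rtp4 (-0.98) with anti-IL-17A were lost, and that of Zbp1 with anti-IL-17A was gained (-1.02).

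In BM 16 members were below WT in all 3 treated groups, among them Isg15, Usp18, Ifit1, Ifit3, Oas1a, Mx1, Mx2, Phf11b, Rtp4, Xaf1 and Ifi27l2a, and 17 in none. Of all BM genes 2.98% were below WT in all 3 groups, which share the WT libraries, and 86.3% in none. The members named in the next sentences were chosen after their values were seen. Ifi27l2a, a small membrane protein gene, was at 134, 141 and 146 CPM in BM WT and rose only to 303, 310 and 309 CPM in Vehicle. With treatment it was at 7.38, 7.83 and 7.16 CPM (GLP-1R agonist), 21.8, 20.7 and 21.9 CPM (anti-IL-17A) and 8.12, 10.2 and 8.48 CPM (Combo), which is 18.8-fold, 6.53-fold and 15.7-fold lower than WT. No treated library came near the WT range. In the OAS family, 6 of 6 members were below WT in BM with the GLP-1R agonist, with a median log2 fold change of -2.88, against 3 of 6 with anti-IL-17A (median -0.93) and 4 of 6 with Combo (median -1.20). Oas1a was at 33.4, 35.1 and 34.1 CPM in BM WT, at 3.66, 2.97 and 3.11 CPM with the GLP-1R agonist, at 11.6, 12.0 and 12.4 CPM with anti-IL-17A and at 14.7, 15.1 and 15.8 CPM with Combo. Its 4 groups were separate, in that order from WT downwards through Combo and anti-IL-17A to the GLP-1R agonist. Of the 7 sensors and kinases, Eif2ak2, Adar, Ifih1, Dhx58 and Ddx58 were called in none of the BM treated groups, while Zbp1 and Ddx60 were below WT with the GLP-1R agonist and with Combo. Adar was at 85.0 to 107 CPM in the treated BM libraries against 95.9 to 106 CPM in WT.

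In ATMs Usp18, Oasl2 and Ifi44 were below WT in all 3 treated groups, as were 3.42% of all ATM genes, and 31 members were below WT in none. Usp18 had log2 fold changes of -1.66, -1.17 and -1.44, and Oasl2 of -1.73, -1.33 and -1.06, of which the last went to -0.99 and -0.98 when Combo replicate 2 or replicate 3 was left out. Ifi44 had -3.03, -1.09 (FDR 0.0314, edgeR) and -1.77, and its anti-IL-17A value went to -0.95 without the first WT library. Above WT with the GLP-1R agonist were Oasl1, at 196, 196 and 194 CPM against 64.7 to 80.5 CPM in WT (2.75-fold, log2 1.46 ± 0.0860, FDR 2.14e-09, edgeR), and Ifit1 (2.02-fold, log2 1.02 ± 0.0609, FDR 2.62e-09, edgeR), which lay at the limit and fell under it by DESeq2 (0.98). Above WT with Combo were Oas3, at 47.4, 33.3 and 55.2 CPM against 12.6, 15.7 and 13.7 CPM in WT (3.24-fold, log2 1.69 ± 0.301, FDR 0.000298, edgeR), and Epsti1 (2.63-fold, log2 1.39 ± 0.126, FDR 2.5e-07, edgeR). The Combo libraries of these genes did not overlap those of WT. Called below WT in both tissues were 8 members with the GLP-1R agonist, 7 with anti-IL-17A and 4 with Combo (Usp18, Oasl2, Mx2 and Ifi44), against 1.53%, 0.788% and 1.56% of the 13076 genes tested in both.

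**Figure D3:**
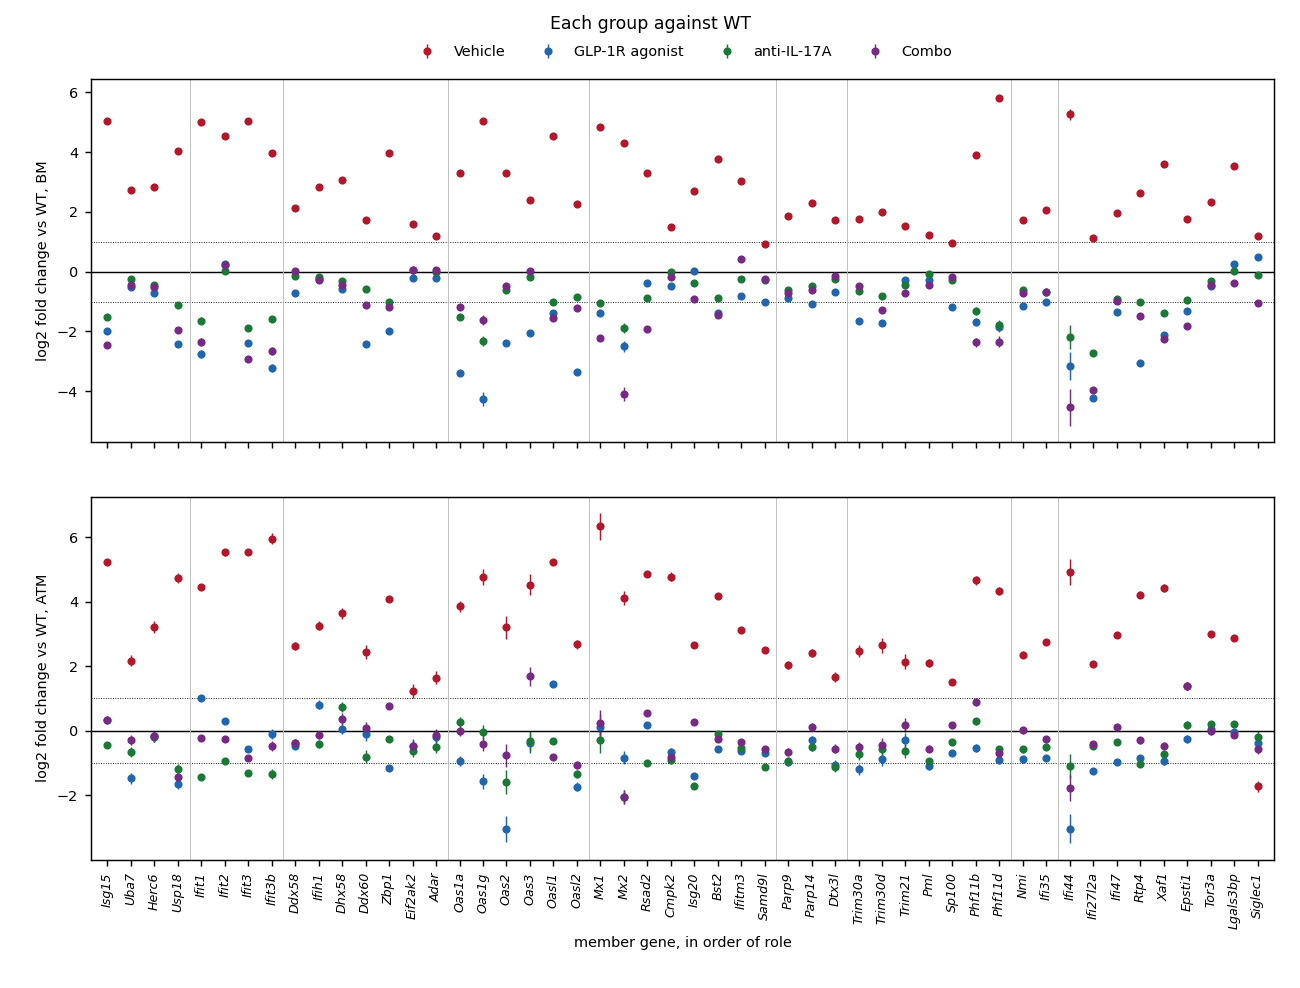
Log2 fold change against WT with its SE (bars) for each of the 50 members in order of role, for Vehicle, GLP-1R agonist, anti-IL-17A and Combo, with BM above and ATM below; dotted lines mark a log2 fold change of 1 in either direction. The Vehicle points lie above the line at 1 for 48 members in BM and 49 in ATMs, and the treated points lie mostly at or below 0, the lowest in BM being Ifi44 with Combo (-4.54).

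Between treatments fewer members were called. In BM, 10 members were higher and 3 lower in Combo than in the GLP-1R agonist group (median log2 fold change 0.25, with 4.59% of genes called higher and 8.57% lower). The 10 were Oas1a, Oas1g, Oas2, Oas3, Oasl2, Rtp4, Ddx60, Ifitm3, Trim30a and Sp100, of which Oas1g (6.27-fold), Oas1a (4.68-fold) and Oasl2 (4.44-fold) differed most, and the 3 were Mx2 (-1.60), Rsad2 (-1.53) and Siglec1 (-1.51). Against anti-IL-17A, Combo was lower for 8 members in BM (median -0.25, where 4.63% of genes were called lower), which were Ifit3, Ifit3b, Mx1, Mx2, Rsad2, Phf11b, Ifi44 and Ifi27l2a. The GLP-1R agonist was lower than anti-IL-17A for 12 members in BM (median -0.49, 3.41%), 5 of them in the OAS family. BM Rsad2 shows the order of the Combo group, at 60.3, 62.7 and 60.9 CPM with the GLP-1R agonist, 44.3, 41.4 and 44.3 CPM with anti-IL-17A and 20.5, 22.3 and 20.7 CPM with Combo. Its 3 treated groups did not overlap, with Combo the lowest.

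In ATMs, 10 members were higher and 3 lower in Combo than with the GLP-1R agonist (median 0.35, with 5.38% of genes called higher and 13.4% lower), and 6 were higher in Combo than with anti-IL-17A (median 0.31, 3.73%). Higher in Combo than in both single-agent groups were Zbp1, Oas3, Isg20 and Epsti1. Isg20, an exonuclease, was at 73.3, 75.7 and 68.5 CPM with the GLP-1R agonist, 62.4, 56.6 and 56.7 CPM with anti-IL-17A and 234, 238 and 223 CPM with Combo, the last above the 179 to 198 CPM of WT. Rsad2 in ATM Combo was at 309, 333 and 288 CPM against 109, 104 and 103 CPM with anti-IL-17A, the reverse of its order in BM. The neutrophil markers, which were at 12140 to 12473 CPM in ATM Combo and at most 390 CPM in both single-agent groups, moved with these members. Other markers also set ATM Combo apart from both single-agent groups. Pancreatic acinar markers summed to 361 to 387 CPM against at most 21.6 CPM, and T cell markers to 663 to 686 CPM against at most 400 CPM. Erythroid markers summed to 5423 to 5576 CPM against at most 1533 CPM. The part of all these markers was not tested. The GLP-1R agonist against anti-IL-17A had 7 members higher in ATMs, Ifit1, Ifit2, Ifit3b, Ifih1, Oasl1, Mx2 and Rsad2, and 4 lower, Oas1a, Oas1g, Oas2 and Ifi44 (median -0.12, with 4.88% of genes called higher and 3.22% lower). Ifit1 had the largest of these differences, 2.44 on the log2 scale, followed by Oasl1 with 1.77.

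Where both single agents lower a gene, the sum of their log2 changes can be set against the change in Combo. In BM, 49 of 50 members were called above that sum (median departure 3.54, where 9.59% of genes were called above it), and Siglec1 (-0.21) was not called. In ATMs 49 were called above the sum and Siglec1 below it (median 3.98, with 12.9% of genes above and 23.0% below, and a median over all genes of -0.21). The medians against Vehicle were -3.69, -3.20 and -3.52 in BM and -3.69, -3.64 and -3.28 in ATMs for the GLP-1R agonist, anti-IL-17A and Combo, so that Combo was at about the level that either agent gave alone. Each agent alone already brought the members, on average, below the WT level, so the sum of both lay far below WT. A value above that sum was therefore nearly fixed in advance, and the departure says nothing of how the agents act together. The sum also has little meaning for genes at or near 0 counts in a treated group, such as BM Ifi44.

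The size of the effect was compared between tissues over the 13076 genes tested in both. For Vehicle against WT, 9 members differed, with 7 larger in ATMs and 2 smaller or opposite (median difference, ATM minus BM, 0.54 on the log2 scale, where 11.9% of genes were called higher and 16.8% lower). These counts are near or below the shares of all genes and say nothing particular of the members as a set. Cmpk2 differed most, by 3.27 (SE 0.135, FDR 2.98e-17, edgeR). It went from 96.6, 99.5 and 92.2 CPM to 275, 272 and 269 CPM in BM and from 36.5, 33.9 and 38 CPM to 975, 1002 and 978 CPM in ATMs, so ATMs held less of it in WT and more of it in Vehicle. Rsad2, which lies next to Cmpk2, differed by 1.55 (SE 0.0712, FDR 2.85e-16, edgeR), Oas3 by 2.13 and Ifit3b by 1.99. Phf11d (-1.49) and Siglec1 (-2.91, SE 0.204, FDR 2.45e-12, edgeR) were on the other side. For Combo against Vehicle, 18 members differed (median difference 0.22, with 17.8% of genes called higher and 10.3% lower). In 15 of them the ATM value was higher, that is, the fall was smaller in ATMs or, for Siglec1, reversed, with Epsti1 (3.66), Siglec1 (3.44) and Phf11d (3.19) the furthest. Cmpk2 (-3.87), Samd9l (-1.85) and Ifit2 (-1.43) fell further in ATMs. Mx1, Cmpk2, Samd9l, Phf11d and Siglec1 differed in both comparisons.

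**Figure D4:**
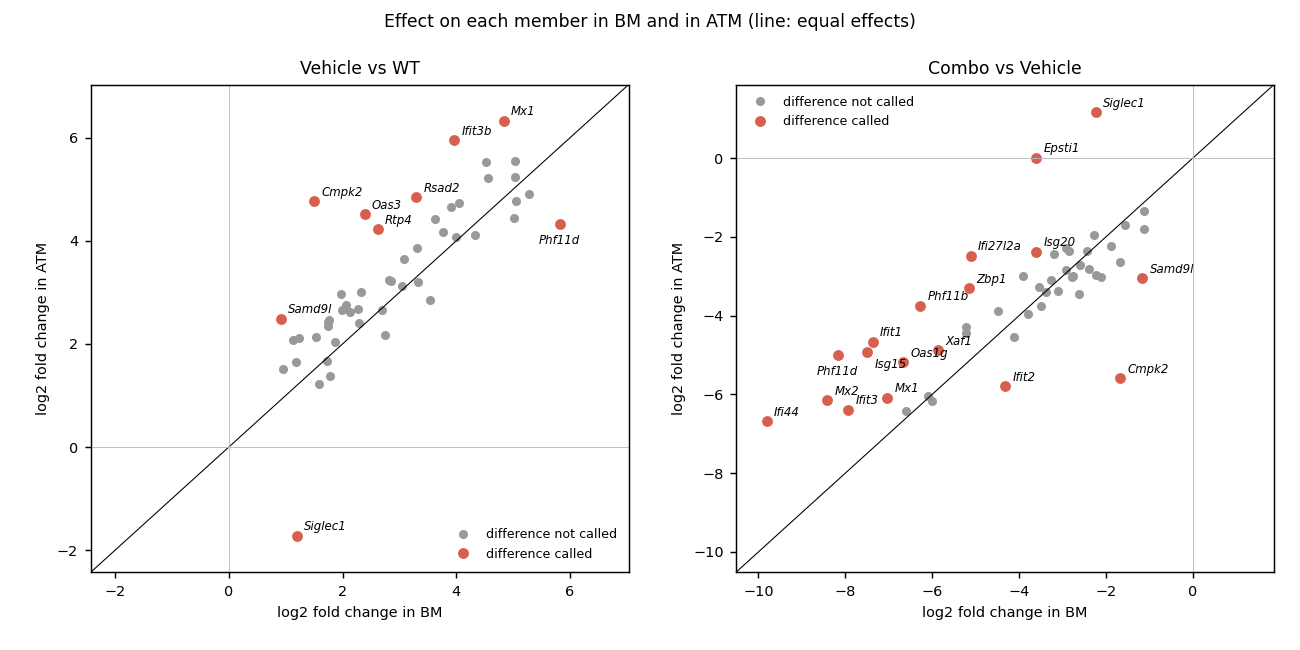
Log2 fold change in BM (horizontal) against that in ATM (vertical) for each member, for Vehicle against WT (left) and Combo against Vehicle (right); the line marks equal effects and red points are members whose difference between tissues was called. On the left 9 points are red, with Cmpk2 furthest above the line and Siglec1 furthest below it, and on the right 18 are red, of which 15 lie above the line.

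The rest of the interferon pathway was read from lists of ligands, receptors, receptor signalling, induction and negative regulation that hold no member. Ifnb1, interferon beta, was tested in ATMs, where it was at 2.37, 1.71 and 1.18 CPM in WT and 38.6, 39.0 and 44.7 CPM in Vehicle (23.3-fold, log2 4.54 ± 0.348, FDR 1.9e-08, edgeR). It was at 17.7, 20.2 and 19.8 CPM with the GLP-1R agonist, 1.94, 0.646 and 1.61 CPM with anti-IL-17A and 2.60, 3.10 and 3.74 CPM with Combo. Only the GLP-1R agonist libraries stayed well above WT, at 11-fold (log2 3.46 ± 0.335, FDR 7.61e-07, edgeR). In that group 2 members, Ifit1 and Oasl1, were above WT and 12 were below it, with a median log2 fold change of -0.64. Of all ATM genes 7.70% were called higher there and 7.42% lower, and a link of Ifnb1 to the members was not tested. Ifnb1 was not analysed in BM, where the single ligand tested was Ifng, interferon gamma, at 0.769 to 0.835 CPM in WT and 3.31 to 4.01 CPM in Vehicle. Of 5 receptor genes none was called in BM and Ifngr2 was called higher in ATMs.

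Among the receptor signalling genes, Stat2 rose in both tissues and Irf9 rose in ATMs. Stat2 was at 51.4, 51.6 and 47.3 CPM in BM WT and 459, 469 and 464 CPM in BM Vehicle (9.26-fold, log2 3.21, FDR 2.84e-44, edgeR), and at 25.8, 28.2 and 28.3 against 276, 279 and 235 CPM in ATMs (9.59-fold, log2 3.26, FDR 1.17e-11, edgeR). In BM Irf9 (0.76) missed the fold limit. Both fell with Combo in both tissues. Of 14 induction genes, 4 rose in BM (Ikbke, Irf7, Tlr3 and Tlr7), and in ATMs 7 rose and Mavs fell (-1.21). Irf7, the interferon-inducible factor that amplifies interferon transcription, was at 59.6, 66.8 and 63.4 CPM in BM WT and 1386, 1421 and 1461 CPM in BM Vehicle (22.5-fold, log2 4.49 ± 0.0416, FDR 3.2e-29, edgeR), and at 110, 114 and 117 against 5257, 5109 and 5268 CPM in ATMs (45.8-fold, log2 5.52 ± 0.0747, FDR 1.98e-17, edgeR). With treatment Irf7 was at 16.6 to 34.4 CPM in BM and 53.0 to 95.5 CPM in ATMs, below every WT library of its tissue. Of 13 negative regulators, 6 rose in BM and 4 rose and 1 (Socs3, -1.41) fell in ATMs. The DNA exonuclease Trex1 rose in both, by 2.80 and 3.46 on the log2 scale, but its whole exon length (100%) overlaps Atrip, so its reads cannot be told apart from those of that gene.

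**Figure D5:**
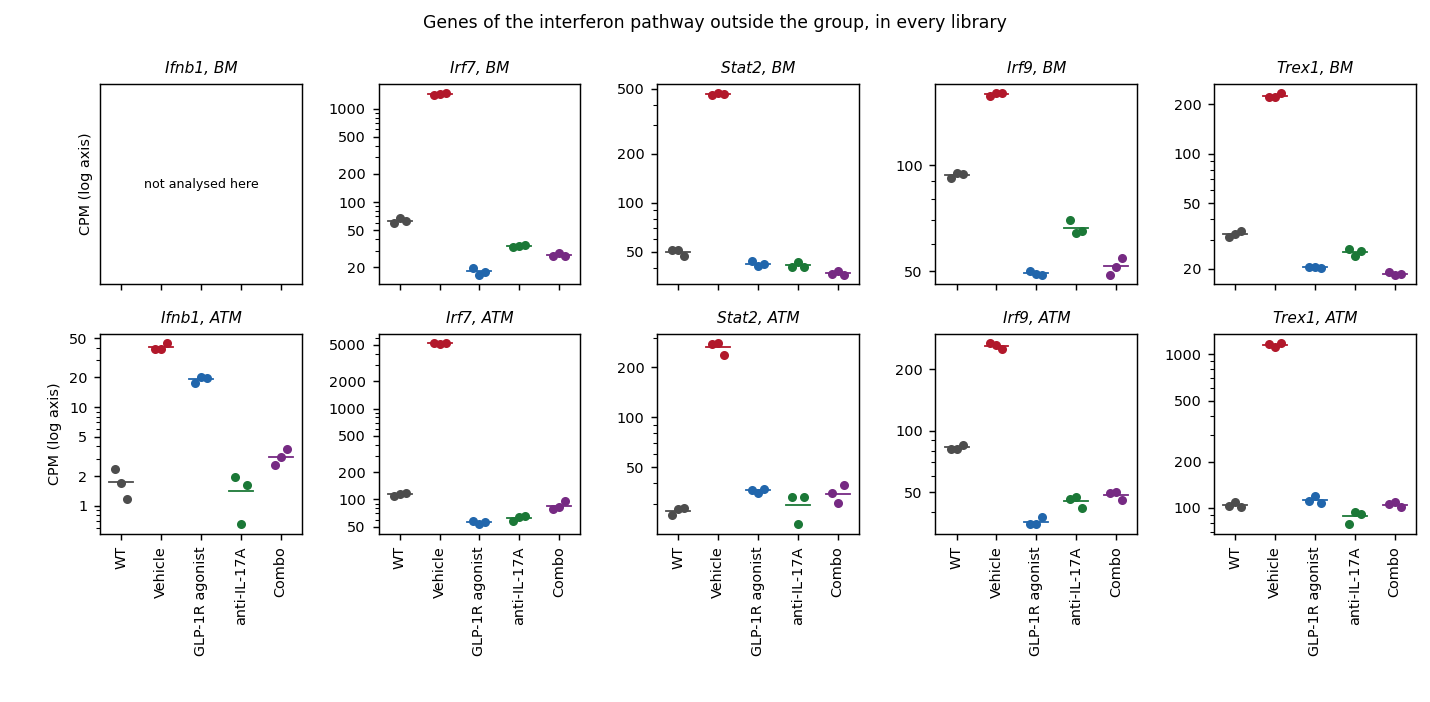
CPM on a log axis for 5 pathway genes that are not members, in every library (points) with group means (lines), BM above and ATM below; Ifnb1 was not analysed in BM. Irf7, Stat2 and Trex1 follow the members, while Ifnb1 in ATMs is at 17.7 to 20.2 CPM with the GLP-1R agonist, between Vehicle (38.6 to 44.7 CPM) and the other groups.

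The response element can be set against the readout in genes that are not members. In BM 62 of 308 non-members with the core in their promoter (20.1%) were called higher in Vehicle than in WT, against 827 of 9767 without it (8.47%), and in ATMs 91 of 379 (24%) against 1467 of 12373 (11.9%). For Combo against Vehicle, 78 of the 308 (25.3%) fell in BM against 9.68% of those without the core, and 87 of the 379 (23.0%) fell in ATMs against 11.5%. In both comparisons and both tissues the share with the core was the higher, a description with no test, since genes that share a promoter element are not independent.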

How the data were processed

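Poly(A) RNA of 15 BM and 15 ATM libraries, 3 per group, was sequenced by the authors, who aligned reads with STAR 2.7.2a to mm10 (GRCm38) and counted them per gene with featureCounts 2.0.1, without strand and with a read on several genes counted for each. The deposited values are raw counts, 1 table per tissue, with totals of 24876074 to 45300263 per library. They were tested here as deposited with edgeR 4.0.16 (R 4.3.3; TMM, filterByExpr, robust quasi-likelihood, 2-sided, Benjamini-Hochberg over all genes), 1 fit over the 15 libraries of a tissue, called at FDR below 0.05 and a log2 fold change beyond 1, as in the study's call rule. CPM are counts scaled to 1000000 with TMM-adjusted library sizes, and mean log2 CPM over the members used a prior count of 2. Differences between tissues were an interaction contrast over all 30 libraries. The labels give 3 mice per group.

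The members and all lists were chosen with earlier results of these data known. Values in every library were given by rule for the member of each role with the highest mean count per tissue, for the 5 largest changes in Vehicle against WT per tissue among members with a mean of at least 10 counts, and for members called against the majority there. Zbp1, Samd9l, Rsad2, Cmpk2, Oas1a, Isg20, Ifi27l2a, Epsti1 and ATM Oas3 were chosen after their values were seen. Exon lengths and positions came from GENCODE on GRCm38 and promoters from RefSeq (GRCm38.p6). The test was tried on simulated data. Alternatives were DESeq2 1.42.0, its size factors, no filter and a mean count of at least 10, no fold limit, only the 6 libraries compared, the replicate number as a block, limma 3.58.1 (voom with a weight per tissue) and each library left out. A fit without the ATM Vehicle libraries was added after seeing the data. Same-numbered libraries of different groups did not deviate together (median correlation 0.00455 in BM and -0.00168 in ATMs, with 1 of 30 and 0 of 30 pairs over 0.1), so the numbers were not taken as pairs. No sequence of a protein and no read-level data were used here. A gene of the pathway is not reported here.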

Additional observations from a re-analysis of the deposited data

Results flagged for a closer look

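The results listed here differed between tissues by the interaction contrast over all 30 libraries (effect in ATM minus effect in BM on the log2 scale, edgeR). For Vehicle against WT, 9 members differed. The ATM effect was larger for Cmpk2 (3.27), Oas3 (2.13), Ifit3b (1.99), Rtp4 (1.60), Samd9l (1.57), Rsad2 (1.55) and Mx1 (1.5), and it was smaller for Phf11d (-1.49) and opposite for Siglec1 (-2.91). For Combo against Vehicle, 18 members differed. Of the 50, 30.0% were called higher and 6.00% lower, against 17.8% and 10.3% of the genes. The value was higher in ATMs for Epsti1 (3.66), Siglec1 (3.44), Phf11d (3.19), Ifi44 (3.16), Ifit1 (2.74), Ifi27l2a (2.67), Isg15 (2.62), Phf11b (2.56), Mx2 (2.32), Zbp1 (1.89), Ifit3 (1.58), Oas1g (1.53), Isg20 (1.26), Xaf1 (1.03) and Mx1 (1.00), and lower for Ifit2 (-1.43), Samd9l (-1.85) and Cmpk2 (-3.87). The Mx1 value for Combo lay at the limit and went to 0.36 without the first ATM Combo library, to 0.82 with a weight per tissue and to 0.89 with DESeq2's size factors, and that of Xaf1 went to 0.92 with size factors. In ATMs the neutrophil markers summed to 12140 to 12473 CPM in Combo and 232 to 251 CPM in WT, and their part in these differences was not tested.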

How the results depend on the processing

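No called value of a member changed sign under any alternative run, and values that were not called were not followed. Counts of members called moved by more than 1.5 times only where the fold limit was dropped. In BM they then became 49, 44 and 46 against WT for GLP-1R agonist, anti-IL-17A and Combo, where 74.7%, 66.3% and 73.3% of all genes were called. In BM they became 39 for Combo against GLP-1R agonist, 41 for Combo against anti-IL-17A and 46 between the single agents (71.4%, 52.5% and 62.7% of all genes). In ATMs they became 36, 38 and 32 against WT (35.5%, 38.3% and 41.1%). Between treatments in ATMs they became 31, 25 and 31 in the same order (39.8%, 28.6% and 29.8%). The tissue differences became 37 for Vehicle against WT and 32 for Combo against Vehicle (56% and 55.1% of the genes tested in both). This follows from the wider rule. Leaving out each library in turn gave in BM 48 to 49 members for Vehicle against WT, 49, 50 and 50 for the 3 treatments against Vehicle, 29 to 31, 15 to 17 and 23 to 25 against WT, 13 to 14, 6 to 9 and 11 to 13 between treatments and 48 to 49 for the departure from the sum. In ATMs it gave 50 for Vehicle against WT, 50, 50 and 49 against Vehicle, 13 to 15, 11 to 13 and 5 to 6 against WT, 12 to 13, 5 to 8 and 10 to 11 between treatments and 50 for the departure, and the tissue differences were 9 to 12 and 15 to 19. Of 10740 calls of single members in these runs 70 were lost. BM calls near the limit that were lost included Ifi35 with GLP-1R agonist against WT (-0.99 without the first WT library) and Siglec1 with Combo (-0.96 without the second). With the replicate number as a block, 660 of 662 calls of single members were kept, the count fell from 8 to 7 for BM Combo against anti-IL-17A (Ifi44 was lost) and from 13 to 12 for ATM Combo against GLP-1R agonist, and the other counts were as reported. DESeq2 kept 659 of 662 calls, and its size factors in edgeR 685 of 689. Without the 3 ATM Vehicle libraries, a fit added after seeing the data, the ATM counts against WT were 14, 12 and 6 and those between treatments 12, 6 and 11. Genes with few counts in a treated group, such as BM Ifi44 and Oas1g, have folds limited by depth, and 3 libraries a group limit the rest.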
